A study of Mus musculus with 96 samples.

Results

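A set of 10 genes, 8 carboxylesterases (Ces1d, Ces1e, Ces1f, Ces1g, Ces2a, Ces2c, Ces2e and Ces3a) and 2 epoxide hydrolases (Ephx1 and Ephx2), were followed in mouse liver across 6 dietary doses of PB. Each gene was read from the probe set (a group of probes on an Affymetrix array) that the array's annotation gave to that gene alone, and where there were several, from the one with the highest mean over all arrays. In this way 8 of the 10 were measured, among 18193 genes in all: 6 carboxylesterases and both epoxide hydrolases. No probe set was annotated with Ces2c alone, and Ces3a lay only on a probe set annotated with several genes, so neither has a value below.

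The data were 96 arrays of liver RNA from CD-1 mice, an outbred stock, so that mice of a group differ in genotype. The diet of both sexes carried PB at 150, 75, 15, 1.5 or 0.15 mg/kg-day or none (dose 0, called untreated here), and liver was taken on day 2 or day 7, which gave 24 groups of 4 arrays. The labels do not spell out PB, which in work on the nuclear receptor CAR (gene Nr1i3) commonly stands for phenobarbital, and the series title names CAR-mediated liver tumour formation as its subject. Doses are in mg/kg-day as in the series' design text, although ppm stands beside the same figures in the titles of the samples. The sources used here give neither the age of the mice nor a statement that arrays of a group came from different mice, so every p-value measures the spread between these arrays. Values are the deposited log2 values, on which a difference of 1 is a doubling, and errors are SD with n = 4 unless SE is named. Levels of different genes come from different probes and are not compared.

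Carboxylesterases are enzymes of the endoplasmic reticulum that split esters and amides. In liver they act on ester drugs and pesticides and on stored lipids, and members of the Ces1 group include triacylglycerol hydrolases. Epoxide hydrolases add water to epoxides to give diols. Ephx1, the microsomal enzyme, acts on the reactive epoxides that cytochrome P450 enzymes make from foreign compounds, while Ephx2, the soluble enzyme, acts mainly on epoxides of fatty acids. CAR binds DNA beside the receptor RXR at pairs of AGGTCA-like elements, and its activation by phenobarbital raises P450 enzymes of the Cyp2b group in liver.

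The genes lie in a few places in the mouse genome. In the RefSeq annotation, Ces1d, Ces1e, Ces1f and Ces1g follow each other on chromosome 8, Ces2a and Ces2e lie elsewhere on that chromosome with Ces2b and Ces2c between them, Ephx1 lies on chromosome 1 and Ephx2 on chromosome 14. RefSeq sequences before the start site (GRCm38.p6) were given for 5 of the 8 measured members. The windows of Ephx1 and Ces2a are shown because these 2 genes rose at 150 mg/kg-day in both sexes on both days, and that of Ces2e because it is a Ces2 gene near Ces2a that did not pass the test. Each window holds the 250 bases before the start, 5′ to 3′ on the gene's own strand: chr1:181017570-181017819 (minus strand) for Ephx1, chr8:104733753-104734002 (plus strand) for Ces2a and chr8:104926010-104926259 (plus strand) for Ces2e. Capitals mark AGGTCA and a run of 17 bases that Ces2a and Ces2e share.
Ephx1: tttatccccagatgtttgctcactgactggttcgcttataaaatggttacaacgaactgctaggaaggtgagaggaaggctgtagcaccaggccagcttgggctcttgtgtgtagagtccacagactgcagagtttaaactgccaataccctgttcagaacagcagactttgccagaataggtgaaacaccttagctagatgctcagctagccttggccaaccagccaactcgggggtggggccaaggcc
Ces2a: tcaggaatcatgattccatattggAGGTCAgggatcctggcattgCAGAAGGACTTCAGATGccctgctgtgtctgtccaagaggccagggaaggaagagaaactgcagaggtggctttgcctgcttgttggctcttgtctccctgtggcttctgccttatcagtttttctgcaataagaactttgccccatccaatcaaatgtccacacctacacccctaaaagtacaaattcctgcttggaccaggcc
Ces2e: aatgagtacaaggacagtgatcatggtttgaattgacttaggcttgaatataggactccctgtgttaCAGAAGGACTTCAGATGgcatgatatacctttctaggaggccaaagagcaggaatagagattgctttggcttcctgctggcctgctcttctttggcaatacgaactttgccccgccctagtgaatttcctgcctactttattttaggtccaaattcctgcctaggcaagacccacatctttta
The windows were searched on both strands for AGTTCA, an element bound by CAR and related receptors, and for its variant AGGTCA. They were also searched for TGACNNNGC, the core of the antioxidant response element. Of the 5 windows, only that of Ces2a held any of them, with AGGTCA starting 226 bases before the start site. Of the 32851 windows in the table, 14% held AGGTCA somewhere. The other 2 were less frequent, with AGTTCA in 11.8% of windows and with TGACNNNGC in 10.2% of them. The run of 17 bases, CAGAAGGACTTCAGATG, begins 205 bases before the start of Ces2a and 183 bases before that of Ces2e, and no other window in the table held it.

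Before the results, the labels were set against the data. Hepatocyte markers such as albumin were high on all arrays. Cyp2b10, the classic CAR target, was at 6.41 to 9.31 in untreated mice and at 13.36 to 13.70 at 150 mg/kg-day. On day 2 in males, the library labelled replicate 1 at 15 mg/kg-day had 13.66, where its other 3 arrays had 11.07 to 11.29, and the library labelled replicate 1 at 75 mg/kg-day had 10.98, where its other 3 had 13.19 to 13.36. These 2 libraries go against their dose labels, so values of these 2 groups are also given without them. In females on day 2, replicate 4 at 1.5 mg/kg-day and replicate 4 at 15 mg/kg-day had the lowest Ces2a of all arrays, at 8.56 and 9.94. They are treated in the same way. As they were chosen by these values, a smaller spread of Ces2a without them follows from the choice. As arrays hold no counts, precision is set by how many there are.

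The first comparison asked which of the genes differed between 150 mg/kg-day and dose 0. Ephx1 and Ces2a rose in both sexes on both days, between 1.84 and 3.43-fold. Ces1d rose in 3 of the 4 comparisons and Ces1g in 1, while Ephx2 fell in males on both days. Ces1e, Ces1f and Ces2e did not pass the test in any of the 4. In limma's test with Benjamini-Hochberg adjustment over 18193 genes, 3 of the 8 measured members rose in females on day 2, where 3.32% of all genes rose. In males on day 2, 4 rose (2.5% of all genes) and 1 fell (2.4% of all genes). On day 7, 3 rose in females (1.52% of all genes), and in males 2 rose (2.2% of all genes) and 1 fell (0.835% of all genes). The median log2 difference of the 8 members was 0.59 and 0.44 on day 2 in females and males and 0.57 and 0.38 on day 7, beside medians over all genes of -0.03, -0.02, -0.02 and 0.00. All 4 comparisons drew on separate arrays. Among all genes, treated arrays lay above all untreated ones for 4.54% and 4.26% on day 2 in females and males. On day 7 this held for 4.31% and 5.13%. In males treated arrays lay below all untreated ones for 5.99% of genes on day 2 and 2.89% on day 7.

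**Figure D1:**
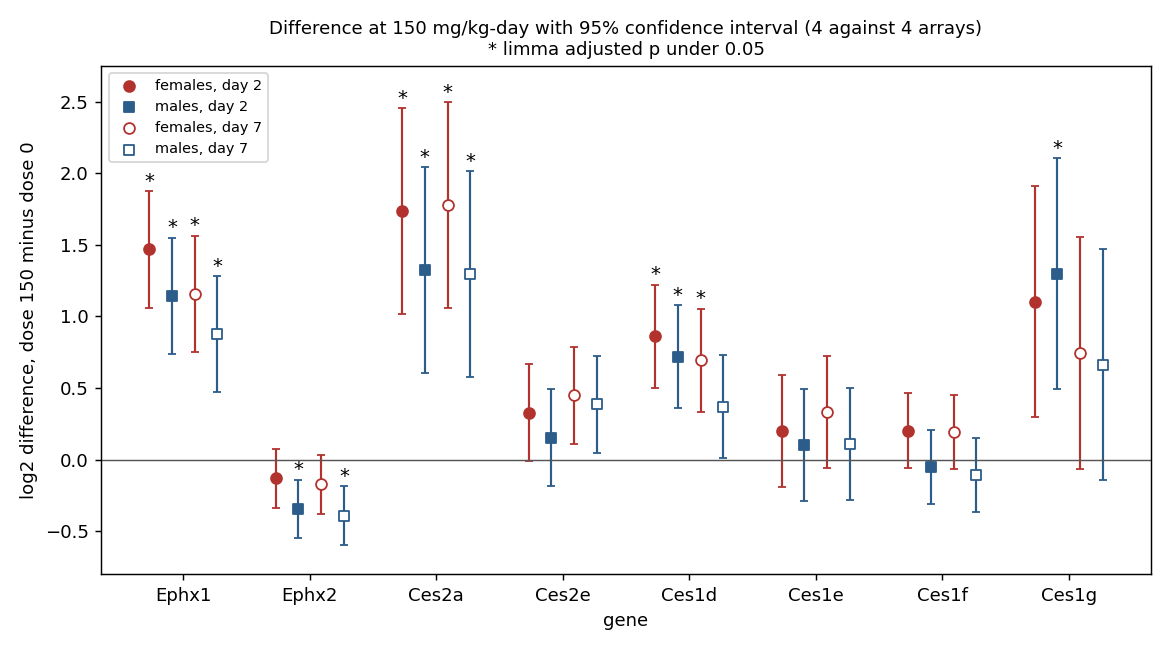
Log2 difference between 150 mg/kg-day and dose 0 for the 8 measured genes (y axis) in females and males on days 2 and 7, with limma's 95% confidence interval; asterisks mark an adjusted p under 0.05. Ephx1 and Ces2a lie above 0 in all 4 comparisons, Ephx2 lies at or below -0.34 in both male comparisons, and the intervals of Ces1e and Ces1f all include 0.

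Ephx1, which turns epoxides left by P450 enzymes into diols, had the clearest rise. In females on day 2 the untreated arrays read 11.40, 10.96, 11.14 and 11.09, and those at 150 mg/kg-day 12.88, 12.85, 12.64 and 12.09. Every treated array lay above every untreated one, and the difference was 1.47 ± 0.20 (SE), or 2.76-fold (adjusted p = 1.59e-07). Males started higher, at 12.06, 12.01, 12.31 and 11.77 on day 2, and reached 13.08, 13.27, 13.06 and 13.32. Here too the groups did not overlap, and the difference was 1.14 ± 0.20 (SE), or 2.21-fold (adjusted p = 5.67e-05).

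On day 7 Ephx1 was again higher in all treated arrays of both sexes. Female livers went from 11.33, 11.37, 11.62 and 11.51 to 12.77, 12.67, 12.35 and 12.68, a difference of 1.16 ± 0.20 (SE), or 2.23-fold (adjusted p = 7.24e-05). Male livers went from 12.48, 12.14, 11.79 and 12.04 to 13.21, 12.78, 13.08 and 12.88, a difference of 0.88 ± 0.20 (SE), or 1.84-fold (adjusted p = 0.00428). The rise of Ephx1 was thus present in 16 of 16 treated arrays, each of them above all 4 untreated arrays of its sex and day. None of the 4 calls was lost when any array was left out or under any other setting tried. Since whole liver was measured, more cells of a type and more RNA per cell cannot be told apart in this or any other difference.

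Ephx2, the soluble epoxide hydrolase, moved the other way in males. On day 2 the untreated male arrays read 12.81, 12.53, 12.64 and 12.57, and those at 150 mg/kg-day 12.32, 12.19, 12.20 and 12.45. All treated arrays lay below all untreated ones, a difference of -0.34 ± 0.10 (SE), or 1.27-fold lower (adjusted p = 0.0324). On day 7 the male values were 12.80, 12.72, 12.56 and 12.77 without PB and 12.27, 12.12, 12.44 and 12.44 with it, again without overlap. The difference was -0.39 ± 0.10 (SE), or 1.31-fold lower (adjusted p = 0.0158).
In females the groups overlapped, with differences of -0.13 ± 0.10 (SE; adjusted p = 0.595) on day 2 and -0.17 ± 0.10 (SE; adjusted p = 0.489) on day 7. Both male calls are close to the threshold: each was lost without any 1 of several arrays, and in fits of only the 8 arrays compared the adjusted p was 0.0886 on day 2 and 0.115 on day 7. Without untreated replicate 1, 3 or treated replicate 1, 2 or 3 on day 2 the adjusted p lay between 0.0581 and 0.167, and without untreated replicate 1 or 4 or treated replicate 1 or 2 on day 7 between 0.0549 and 0.120.

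Ces2a, an ester hydrolase of the Ces2 group, had the highest estimated difference of the 8 genes in each of the 4 comparisons, although its 95% interval overlapped that of Ephx1 in each. In males on day 2 the estimate of Ces1g came closer to that of Ces2a than Ephx1 did, and nearly equalled it. Female livers on day 2 went from 11.96, 12.02, 12.07 and 11.63 to 13.70, 13.71, 13.81 and 13.40, without overlap. That is a difference of 1.73 ± 0.36 (SE), or 3.33-fold (adjusted p = 0.000442). On day 7 they went from 11.76, 12.18, 12.22 and 11.32 to 13.84, 13.73, 13.18 and 13.84, a difference of 1.78 ± 0.36 (SE), or 3.43-fold (adjusted p = 0.000849).
In males the untreated level was 12.76, 11.94, 12.56 and 12.63 on day 2 and 12.82, 11.96, 12.37 and 12.51 on day 7. With 150 mg/kg-day it was 13.85, 13.84, 13.56 and 13.93 on day 2, a difference of 1.33 ± 0.36 (SE), or 2.51-fold (adjusted p = 0.0155). On day 7 it was 13.82, 13.44, 13.80 and 13.77, a difference of 1.29 ± 0.36 (SE), or 2.45-fold (adjusted p = 0.0261). Both male comparisons were without overlap. The call was lost without untreated replicate 2 on day 2 (adjusted p = 0.0723) and, on day 7, without untreated replicate 2 or 3 or treated replicate 1, 3 or 4 (adjusted p between 0.0528 and 0.0986).
The treated values of Ces2a lay in a narrow band, 13.18 to 13.93 over both sexes and days, while the untreated ones ran from 11.32 to 12.82. The highest values on the arrays were 14.86 to 14.97.

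Ces2e, a further Ces2 gene, had positive differences that did not pass the test. On day 7 they were 0.45 ± 0.17 (SE; adjusted p = 0.166) in females and 0.39 ± 0.17 (SE; adjusted p = 0.237) in males, and on day 2 0.33 (adjusted p = 0.333) and 0.15 (adjusted p = 0.746). Male arrays on day 7 read 9.74, 9.84, 9.52 and 9.40 without PB and 10.17, 10.08, 10.05 and 9.74 with it, so that 3 of 4 treated arrays lay above all untreated ones. In females on day 7 treated replicate 3 had 8.95, below 3 of the untreated arrays, and without it the difference was 0.62 (adjusted p = 0.0386).

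Ces1d, a triacylglycerol hydrolase of the endoplasmic reticulum, rose in 3 comparisons. Female values on day 2 went from 12.41, 11.79, 11.86 and 11.97 to 12.92, 13.07, 13.06 and 12.42, with the lowest treated array just above the highest untreated one. The difference was 0.86 ± 0.18 (SE), or 1.82-fold (adjusted p = 0.000501). In males on day 2 it went from 11.83, 12.39, 12.10 and 12.03 to 12.74, 12.85, 12.79 and 12.84, a difference of 0.72 ± 0.18 (SE), or 1.64-fold (adjusted p = 0.00757).
The treated male arrays on day 2 lay close together, between 12.74 and 12.85, and all above the untreated ones. In females on day 7 values went from 12.00, 12.26, 11.96 and 11.92 to 12.86, 13.00, 12.30 and 12.76, each treated array above all untreated ones, a difference of 0.70 ± 0.18 (SE), or 1.62-fold (adjusted p = 0.0177). In males on day 7 the groups overlapped, and the difference was 0.37 ± 0.18 (SE; adjusted p = 0.317). The call in males on day 2 was lost without untreated replicate 1 (adjusted p = 0.0547), and that in females on day 7 without untreated replicate 1 or 4 or treated replicate 1 or 2 (adjusted p between 0.0556 and 0.101). The other 2 probe sets of Ces1d were also higher at 150 mg/kg-day in all 4 comparisons, by 0.45 to 0.80 for the first and 0.41 to 0.59 for the second. In males on day 7 both were free of overlap, while the second overlapped in females on day 7. The second is of a kind whose probes can match other transcripts, so its values may include them. All these sets read the same arrays.

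Ces1g, a Ces1 enzyme of lipid handling in liver, varied widely among untreated mice. On day 2 the untreated female arrays read 10.26, 10.07, 8.40 and 10.59, and those at 150 mg/kg-day 11.30, 11.26, 11.23 and 9.95. Of the treated arrays, 3 lay above all untreated ones and the fourth did not, and the difference of 1.10 ± 0.40 (SE) did not pass the test (adjusted p = 0.104). Without that array, replicate 4, it was 1.43 (adjusted p = 0.0274). In males on day 2 the untreated values were 9.23, 9.64, 9.54 and 10.09 and the treated ones 10.96, 10.84, 10.95 and 10.94.
This was a rise of 1.30 ± 0.40 (SE), or 2.46-fold (adjusted p = 0.0434), without overlap. It was lost when any 1 of 7 of the 8 arrays was left out, all but untreated replicate 4 (adjusted p between 0.0724 and 0.153), and with the mean of each gene's probe sets (adjusted p = 0.05002, just above the threshold). On day 7 the differences were 0.74 (adjusted p = 0.428) in females and 0.66 (adjusted p = 0.466) in males, with overlap in both.

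Ces1e, which is known to hold β-glucuronidase in the endoplasmic reticulum, and Ces1f, a further lipid hydrolase, did not pass the test. For Ces1e the differences at 150 mg/kg-day were 0.20, 0.10, 0.33 and 0.11 in females and males on day 2 and then on day 7, with 95% intervals that reached from -0.29 to 0.72 at the widest. For Ces1f they were 0.20, -0.05, 0.19 and -0.11, with intervals that reached from -0.37 to 0.46. All groups overlapped. The probe set of Ces1f is of the kind whose probes can match transcripts of more than 1 gene, and the Ces1 genes are close copies of each other, so its values may include related transcripts.

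**Figure D2:**
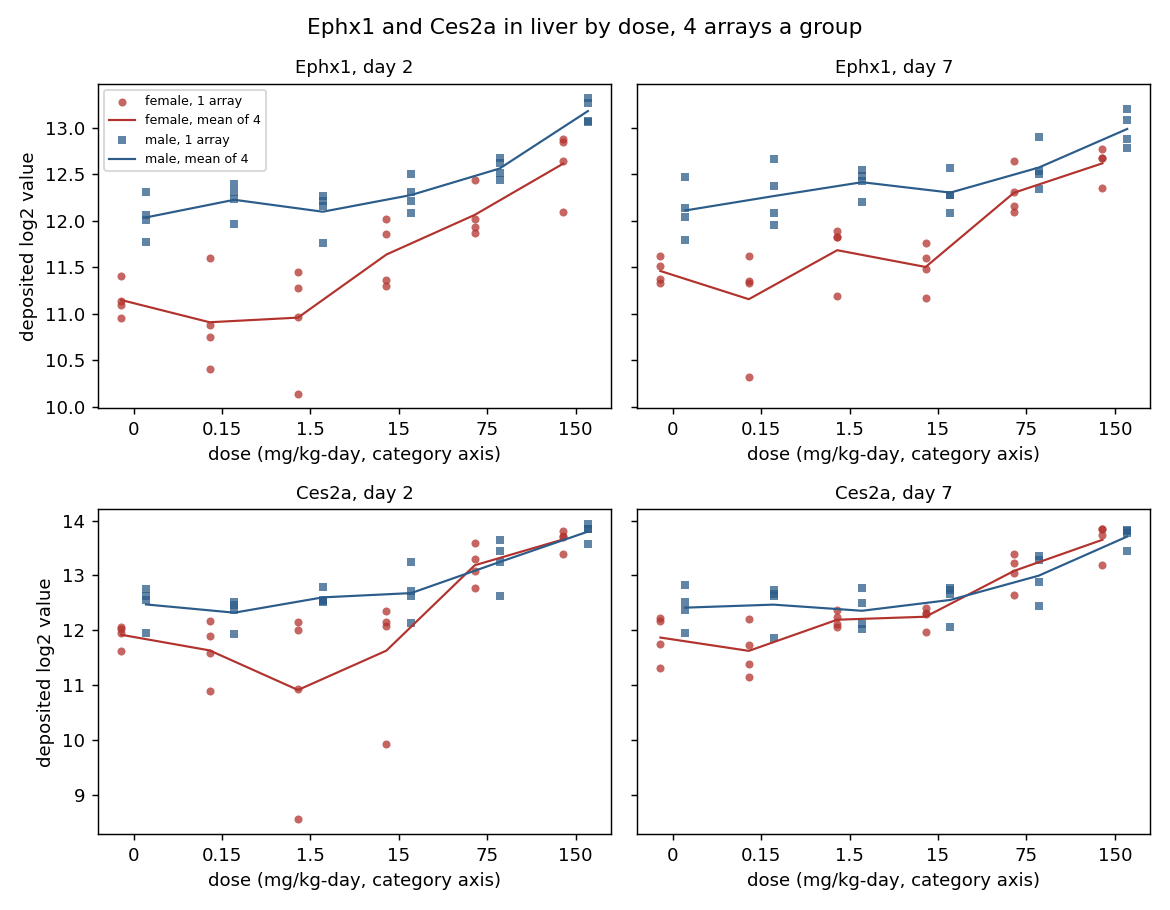
Deposited log2 value of Ephx1 (top) and Ces2a (bottom) on each array by dose on a category axis, for females (circles) and males (squares) on day 2 (left) and day 7 (right); lines join the means of 4 arrays. At 150 mg/kg-day Ephx1 lies between 12.09 and 13.32 and Ces2a between 13.18 and 13.93, and the 2 female arrays with the lowest Ces2a, 8.56 and 9.94, are at 1.5 and 15 mg/kg-day on day 2.

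The lower doses were set against the same untreated arrays, so these comparisons share their controls with those at 150 mg/kg-day. At 75 mg/kg-day 1 member, Ephx1, rose in females on day 2, where 0.451% of all genes were called, and again in females on day 7, where 0.764% were. No member passed the test in males, where 0.44% of all genes did on day 2 and 0.247% on day 7. Over the 4 comparisons at 75 mg/kg-day, 13 of the 32 unadjusted p-values were under 0.05. Such counts of unadjusted p-values, here and at the lower doses, have no share of all genes beside them. The members also share arrays, so these are not 32 separate results.
Female Ephx1 at 75 mg/kg-day read 11.87, 12.02, 11.93 and 12.44 on day 2, all above the untreated arrays, a difference of 0.92 ± 0.20 (SE; adjusted p = 0.0107). On day 7 it read 12.10, 12.31, 12.64 and 12.16, a difference of 0.84 ± 0.20 (SE; adjusted p = 0.0229), also without overlap. The day 2 call was lost without untreated replicate 2 (adjusted p = 0.0632) or treated replicate 4 (0.119), and the day 7 call without untreated replicate 1 (0.0971) or 2 (0.0834) or treated replicate 3 (0.241).
In males at 75 mg/kg-day Ephx1 differed by 0.53 (adjusted p = 0.306) on day 2 and 0.46 (adjusted p = 0.495) on day 7. Without the 2 libraries that go against their labels the day 2 value was 0.57 (adjusted p = 0.286).

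Ces2a at 75 mg/kg-day was above all untreated arrays in females, at 13.08, 12.78, 13.29 and 13.59 on day 2 and 13.23, 13.40, 12.65 and 13.05 on day 7. The differences, 1.27 ± 0.36 (SE; adjusted p = 0.0950) and 1.21 ± 0.36 (SE; adjusted p = 0.0840), did not pass the test. Without the 2 female arrays low in Ces2a, which belong to neither group but enter the shared estimate of spread, the same differences had adjusted p = 0.00150 and 0.00246. Those arrays were chosen by their Ces2a values, which lowers the spread in advance, so no call is drawn from these p-values. In males the difference was 0.77 (adjusted p = 0.424) on day 2, or 0.98 (adjusted p = 0.292) without the 2 libraries against their labels, and 0.58 (adjusted p = 0.674) on day 7. Ephx2 at 75 mg/kg-day lay below all untreated arrays in males on both days and in females on day 7, with differences of -0.35, -0.32 and -0.31 that did not pass the test (adjusted p = 0.126, 0.228 and 0.128). Without the 2 male libraries the day 2 value was -0.40 (adjusted p = 0.0553). Among all genes, arrays at 75 mg/kg-day lay above all untreated ones for 2.59% in females on day 2 and 2.92% on day 7. They lay below them for 2.85% and 1.53% in males on days 2 and 7 and for 3.4% in females on day 7.

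At 15, 1.5 and 0.15 mg/kg-day limma called 0 of the 8 members in any of the 4 comparisons at each dose, where 0.022% (females, day 2), 0.0385% (males, day 2), 0.022% (females, day 7) and 0.011% (males, day 7) of all genes were called at 15 mg/kg-day. At 1.5 mg/kg-day 0% of all genes were called, and at 0.15 the share was 0.0055% in males on day 7 and 0% elsewhere. Of the 32 unadjusted p-values at each dose, 1 was under 0.05 at 15 mg/kg-day (Ephx1 in females on day 2, a difference of 0.49 with adjusted p = 0.955), 2 at 1.5 and 0 at 0.15. The 2 at 1.5 mg/kg-day were both lower values in females on day 2, Ces1e at -0.47 and Ces2a at -1.01 (adjusted p = 0.998 for each). That Ces2a group read 10.93, 12.01, 12.16 and 8.56, with a mean of 10.92 ± 1.66. Without the 2 female arrays low in Ces2a, the difference there was -0.22 ± 0.26 (SE; adjusted p = 0.999), and that of Ces1e was -0.36.
The neighbouring female group at 15 mg/kg-day read 12.35, 12.08, 12.16 and 9.94, a difference from dose 0 of -0.29, or 0.28 without those 2 arrays. In males at 15 mg/kg-day on day 2, Ces2a differed by 0.21 and Ephx1 by 0.24, or by 0.01 and 0.17 without the 2 libraries against their labels. Neighbouring doses were also compared directly. Between 75 and 150 mg/kg-day limma called 0 of 32 member tests. Of all genes, 1.33% and 0.148% were called on day 2 in females and males and 0.055% and 0.126% on day 7. Of the members' tests, 11 had unadjusted p-values under 0.05, and 30 of 32 differences were above 0. These counts have no share of all genes beside them, and the 8 members share arrays, so they are not 32 separate results. Between 15 and 75 mg/kg-day 1 of 32 passed, where 0.104% and 0% of all genes did on day 2 and 0.0879% and 0.0715% on day 7. It was Ces2a in females on day 2, with a difference of 1.55 (adjusted p = 0.0471). Without the array at 9.94 this was 0.99 (adjusted p = 0.444). The call was lost in 9 of the 18 alternatives run on it, with limma's adjusted p up to 0.766. With single arrays left out, the count of 1 changed to 0 for 19 of 32 arrays. Some steps that did not pass were still free of overlap. For Ephx1 this was so in females on day 7 between 15 and 75 mg/kg-day, at 0.80 ± 0.20 (SE; adjusted p = 0.0928). It was also so in males on day 2 between 75 and 150, at 0.62 ± 0.20 (SE; adjusted p = 0.228). Without the 2 libraries against their labels the male value was 0.58 (adjusted p = 0.489). Steps of Ces1d, Ces1f, Ces1g and Ces2a were also among them. The share of all genes free of overlap was not computed for these steps.

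**Figure D3:**
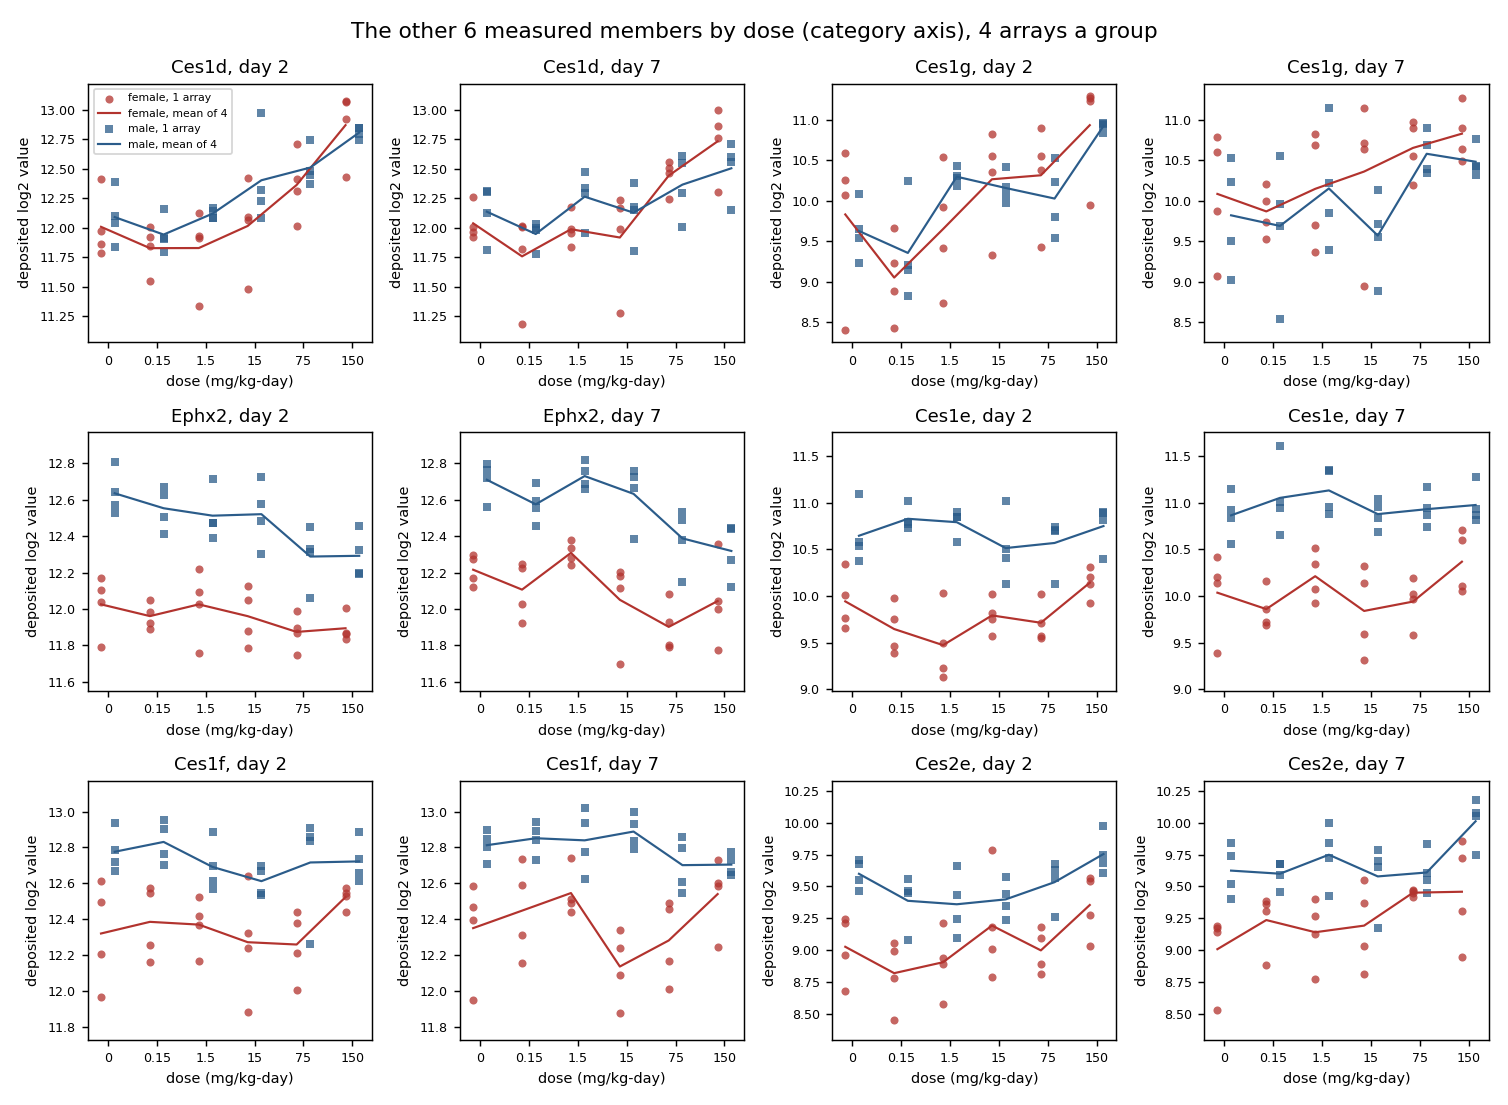
Deposited log2 value of Ces1d, Ces1g, Ephx2, Ces1e, Ces1f and Ces2e on each array by dose on a category axis, for females (circles) and males (squares) on days 2 and 7; lines join the means of 4 arrays, and each gene has its own y axis. Female means of Ephx2, Ces1e, Ces1f and Ces2e lie below the male means at all 12 combinations of dose and day, and Ces1g spreads over more than 1 log2 unit within several groups.

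The next comparison asked whether the response at 150 mg/kg-day differed between the sexes or the days. Limma called 0 of the 8 members for a different response between the sexes on either day, and 0 of 16 unadjusted p-values were under 0.05, where 0.0055% and 0.0879% of all genes were called. For Ephx1 the female response exceeded the male one by 0.32 on day 2 (95% interval -0.25 to 0.90) and by 0.28 on day 7 (-0.29 to 0.86). For Ces2a the excess was 0.41 (-0.61 to 1.42) and 0.49 (-0.53 to 1.50). The intervals of Ces2a are wide beside its differences.
Ephx2 fell in males and was not called in females, but the difference between the sexes itself was not called either, at 0.21 (-0.08 to 0.50) on day 2 and 0.22 (-0.07 to 0.51) on day 7. Between the days 0 of 8 members were called in either sex, and 0 of 16 unadjusted p-values were under 0.05, where 0.874% of all genes were called in females and 0.132% in males. The response of Ces1d in males changed by -0.35 from day 2 to day 7, with an interval from -0.86 to 0.16. At dose 0, limma called 0 of 8 members between days 2 and 7 in either sex, with 0 of 16 unadjusted p-values under 0.05, where 3 genes (0.0165%) were called in females and 0 in males.

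**Figure D4:**
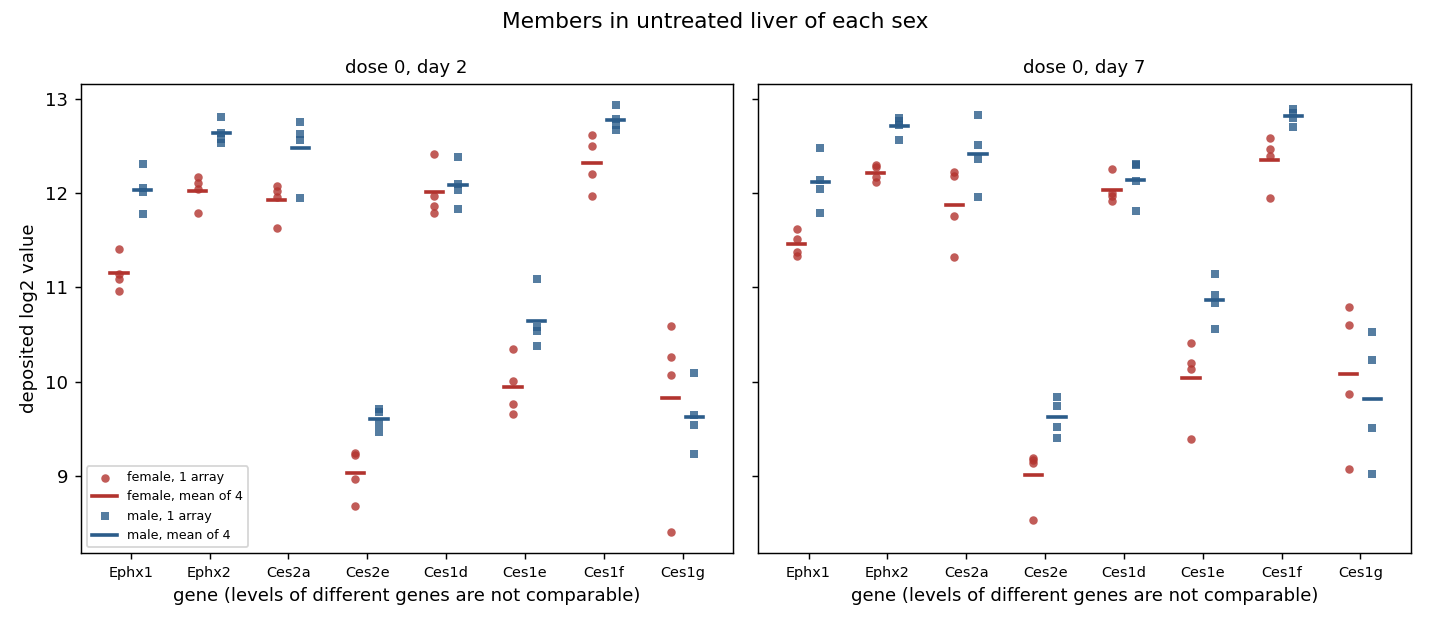
Deposited log2 value of the 8 measured genes on each array of untreated females (circles) and males (squares) on day 2 (left) and day 7 (right), with bars at the means of 4 arrays. Ephx1, Ephx2, Ces1e, Ces1f and Ces2e do not overlap between the sexes on either day and are lower in females, while Ces1d and Ces1g overlap on both days.

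Untreated livers of the 2 sexes differed in several of these genes, and each that passed the test was lower in females. On day 2 these were 4 of 8, namely Ephx1, Ephx2, Ces1e and Ces1f, where 0.962% of all genes were lower in females. On day 7 these were 5 of 8, with Ces2e added, where 2.08% were. Ephx2 showed it most clearly: on day 2 untreated females read 12.04, 12.10, 12.17 and 11.79 against the male values above, a difference of -0.61 ± 0.10 (SE; adjusted p = 2.97e-05). On day 7 they read 12.12, 12.28, 12.30 and 12.17, a difference of -0.49 ± 0.10 (SE; adjusted p = 0.000618). Neither call was lost under any setting or left-out array.
Untreated female Ephx1 differed from male by -0.89 ± 0.20 (SE) on day 2 (adjusted p = 0.00500). On day 7 the difference was -0.65 ± 0.20 (SE; adjusted p = 0.0354). The day 7 call was lost without any of female replicates 1, 2 and 4 and male replicates 1, 2 and 4 (adjusted p between 0.0598 and 0.157).

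Ces1e read 10.34, 9.65, 10.01 and 9.76 in untreated females and 10.37, 10.53, 10.58 and 11.09 in untreated males on day 2, with the highest female array just below the lowest male one. The difference was -0.70 ± 0.20 (SE; adjusted p = 0.0361), and on day 7 it was -0.83 ± 0.20 (SE; adjusted p = 0.00320). The adjusted p of Ces1e rose to between 0.0535 and 0.240 without any of 5 arrays on day 2 (female replicates 2, 3 and 4, male replicates 3 and 4) and to 0.0594 without female replicate 1 on day 7.
Ces1f differed by -0.46 ± 0.13 (SE) on each day, with adjusted p = 0.0410 on day 2 and 0.0161 on day 7. Its day 2 call was lost without female replicate 2 or 4 or any male array (adjusted p between 0.0533 and 0.305), and its day 7 call without female replicate 4 (adjusted p = 0.155). Ces2e differed by -0.57 ± 0.17 (SE; adjusted p = 0.0552) on day 2 and -0.61 ± 0.17 (SE; adjusted p = 0.0139) on day 7, and the day 7 call was lost without female replicate 1 (adjusted p = 0.130) or male replicate 2 (0.0585). In fits of only the arrays compared, the calls of Ces1e and Ces1f on day 2 (adjusted p = 0.114 and 0.191) and of Ces1e, Ces1f and Ces2e on day 7 (0.0559, 0.0828 and 0.0633) were lost. Ces2e on day 2 passed under 4 other settings (adjusted p between 0.0308 and 0.0455). All these groups were free of overlap, which held for 3.25% of all genes in the lower direction on day 2 and 3.89% on day 7. Ces1d, Ces1g and Ces2a did not pass the test, with differences of -0.08, 0.20 and -0.55 on day 2 and -0.10, 0.26 and -0.54 on day 7.

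Group means of the sexes were also compared over all doses, untreated groups included, which is given as a description. The untreated groups are those in which the differences above were called, so their part of the counts below is not separate evidence. No share of all genes stands beside the counts, so they are not shown to be particular to the members. Female means lay below male means in 12 of 12 combinations of dose and day for Ephx1, Ephx2, Ces1e, Ces1f and Ces2e, in 11 of 12 for Ces2a, 9 of 12 for Ces1d and 3 of 12 for Ces1g. The median female minus male difference over the 12 was -0.89 for Ces1e and -0.69 for Ephx1. At 150 mg/kg-day on day 2, female Ephx1 averaged 12.62 ± 0.36 and male Ephx1 13.18 ± 0.13. Female Ces2a averaged 13.66 ± 0.18 there and male Ces2a 13.80 ± 0.16, nearer to each other than the untreated means of 11.92 ± 0.20 and 12.47 ± 0.36.

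Most of these genes varied more between arrays of a group than a usual gene did. The residual SD, the spread within groups over all 96 arrays, was 0.59 for Ces1g and 0.52 for Ces2a, at the 98.8 and 98.4 percentile of all genes. It was 0.29 for Ephx1, 0.28 for Ces1e, 0.26 for Ces1d, 0.24 for Ces2e, 0.19 for Ces1f and 0.15 for Ephx2, where the median over all genes was 0.15. In Ces2a, groups at 150 mg/kg-day had a median SD of 0.18 and untreated groups one of 0.36.
Within groups the members tended to deviate together: over 96 arrays, 27 of the 28 pairs of members had a positive correlation of their deviations from the group mean, with a median r of 0.36. The highest was 0.57, for Ces1d with Ephx1, and the exception was Ces1f with Ces1g at -0.29. Ephx1 and Ces2a had r = 0.47, which was 0.29 over 94 arrays without the 2 female arrays low in Ces2a and 0.46 over 94 without the 2 male libraries against their labels. These points share arrays, and no p is given. The same correlations were not computed for other genes, so these values are not shown to be particular to the members.

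Likeness of pattern was also described across the group means of a sex. Over 12 group means, Ephx1 and Ces2a correlated at r = 0.94 in females and 0.92 in males, and Ces1d with Ces2a at 0.93 and 0.88. Ces1g had r = 0.92 and 0.75 with Ephx1 and 0.83 and 0.84 with Ces1d. Ephx2 ran against Ces2a in males, with r = -0.89, where the female value was -0.37. Leaving out the 2 male libraries against their labels changed r over all 24 group means from 0.901 to 0.899 for Ephx1 with Ces2a. Over all 24 group means, the genes most like Ephx1 by Pearson's r were Stbd1 (0.954), Gsta2 (0.947), Gstm1 (0.936), P2rx4 (0.931) and Gpx4 (0.928). For Ces2a they were Gstm1 (0.946), Gpx4 (0.925), Gstm3 (0.923), Abcc3 (0.908) and Ces1d (0.907). The group means share the dose scale and the sexes, so these values describe likeness of pattern alone.

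Of 14 further carboxylesterases and epoxide hydrolases, 9 were measured, and at 150 mg/kg-day 1 rose in females on day 2, 1 rose and 1 fell in males on day 2, 1 rose in females on day 7 and 0 passed in males on day 7. These counts of 9 stand beside the shares of all genes given above for the same comparisons. Their median log2 differences were 0.03, 0.14, 0.04 and 0.06 in that order. Ces2b, which lies beside Ces2a, was the gene that rose in females, by 0.81 (adjusted p = 0.0454) on day 2 and 0.98 (adjusted p = 0.0195) on day 7, from untreated means of 3.60 and 3.63. Those means lie below the lower quartile of the arrays, 3.91 to 4.09, where probes give little signal. The size of these differences is therefore uncertain in either direction. In males, Ces2b had untreated means of 4.51 and 4.64.
Ces1c, a carboxylesterase secreted into mouse plasma, rose by 0.23 in males on day 2 (adjusted p = 0.0112), and Ces4a fell by 0.85 (adjusted p = 0.0114). Untreated females had more Ces1c than males, by 0.26 on both days (adjusted p = 0.00442 and 0.00236), opposite in sign to the members of the Ces1 group that passed. Ces2b was lower in untreated females, with differences of -0.91 on day 2 and -1.01 on day 7 (adjusted p = 0.0416 and 0.00664), and so was Ces5a on day 7, with a difference of -0.25 (adjusted p = 0.0194).

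Of 28 other ester and amide hydrolases, 26 were measured. In females on day 2, 2 rose and 2 fell, in males on day 2 0 rose and 2 fell, in females on day 7 limma called 0 and in males on day 7 1 rose and 2 fell. Of all genes, 3.32% rose and 2.14% fell in females on day 2, and 2.5% and 2.4% did in males. On day 7, 1.52% rose and 0.923% fell in females, and 2.2% and 0.835% did in males. Pon1, the plasma paraoxonase made in liver, fell by 0.25 in females on day 2 (adjusted p = 0.00410) and by 0.19 and 0.21 in males on days 2 and 7 (adjusted p = 0.0495 and 0.0373). Bche, butyrylcholinesterase, fell by 0.57 in females on day 2 (adjusted p = 0.0106). Lpl, lipoprotein lipase, and Abhd5, a cofactor of fat breakdown, rose by 1.16 and 0.55 in females on day 2 (adjusted p = 0.0204 and 0.00105).
Mgll, which breaks down monoacylglycerols, fell by 0.37 in males on day 2 (adjusted p = 0.0359). Notum, a Wnt deacylase, fell by 0.83 in males on day 7 (adjusted p = 0.00672), where Siae rose by 0.37 (adjusted p = 0.0251). The median log2 difference of this list was between -0.03 and 0.00 in the 4 comparisons.

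For reference, 14 of 18 listed genes of the CAR response and related receptors were measured. Cyp2b10 rose 43.3-fold and 68.9-fold in females and males on day 2 and 45.8-fold and 66.7-fold on day 7. Gstm1 and Aldh1a1, enzymes of conjugation and aldehyde oxidation, rose in all 4 comparisons. Nqo1, a quinone reductase, rose by 1.18 in females (adjusted p = 0.000701) and 0.99 in males (adjusted p = 0.00813) on day 2. Ppara, whose product is a receptor known to drive Ephx2, fell in all 4 comparisons, by 0.58 and 0.70 on day 2 and 0.55 and 0.57 on day 7 in females and males. Its part in the values of Ephx2 was not tested.

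Cell type markers were set beside these results, and those called are named here after their values were seen. Their counts stand beside the shares of all genes given with the other hydrolases for the same comparisons. Of 8 hepatocyte markers, limma called 0 of 8 in 3 of the 4 comparisons at 150 mg/kg-day and 1, Apoa1, lower in females on day 7 (a difference of -0.15), and their mean level was 13.90 to 14.06 in the untreated and treated groups alike. Stellate cell markers were lower for 1 of 8 on day 2 in each sex (Hand2) and for 4 of 8 in males on day 7 (Lrat, Dcn, Reln and Hand2), where their mean level was 8.39 to 8.71 on untreated and 8.02 to 8.42 on treated arrays. On day 2 it was 8.65 to 8.78 untreated and 8.41 to 8.52 treated in females and 8.53 to 8.75 and 8.31 to 8.43 in males. In females on day 7, where no stellate cell marker was called, it was 8.65 to 8.81 untreated and 8.59 to 8.63 treated. Markers of sinusoidal endothelial cells were lower for 2 of 8 on day 2 in each sex (Stab2 and Clec4g in females, Clec4g and Tek in males) and 1 of 8 in males on day 7 (Stab2). Macrophage markers were higher for 2 of 10 in males on day 7 (Adgre1 and Mpeg1), with mean levels of 8.28 to 8.90 untreated and 9.07 to 9.70 treated. Of these 3 lists, no marker read below 5.59 on these arrays.
Of 4 measured fat cell markers limma called 0 in each comparison, and their mean level lay between 5.28 and 5.73. Fat also holds Ces1d and Ces1f. Of 6 gut markers, 2 were lower in females (Fabp2 and Lgals4) and 1 in males (Lgals4) on day 7. Of 5 neutrophil markers 1, S100a8, was higher in females on day 2 and in males on day 7, by 2.83 and 3.22. No other neutrophil marker was called, and the mean level of the 5 overlapped between untreated and treated arrays. It was 5.63 to 6.71 and 6.31 to 6.80 in females on day 2, and 5.48 to 6.36 and 5.74 to 7.27 in males on day 7. Of 6 exocrine pancreas markers 1, Cela1, was lower in females on days 2 and 7, with differences of -0.81 and -0.80. No bile duct or lymphocyte marker was called in these comparisons by limma.
As a measure of RNA quality, the log2 difference between the 3′ and the 5′ control probe sets of Gapdh and of β-actin was compared between 150 mg/kg-day and dose 0. The groups were free of overlap in 2 of the 8 comparisons. For Gapdh in males on day 2 it was -0.170 to -0.0996 on untreated and -0.279 to -0.184 on treated arrays. For β-actin in females on day 7 it was 0.735 to 0.853 and 0.856 to 0.990. The part of any of these in the members' differences was not tested.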

How the data were processed

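Per the labels, liver RNA came from a Trizol extraction, and an Enzo kit amplified and biotinylated 4 μg of it per sample. The authors deposited log2 values of 45101 probe sets on 96 arrays. Their normalization, software and versions are not given in the sources used here. The annotation gave 34945 probe sets 1 gene symbol, 932 several and 9160 none, and 64 were controls. Each gene was represented by its highest-mean probe set with 1 symbol, which gave 18193 genes. With limma 3.58.1 (lmFit and eBayes) in R 4.3.3, 1 model over the 96 arrays estimated the group means, with 72 residual degrees of freedom, two-sided tests and a threshold of 0.05 after Benjamini-Hochberg adjustment over 18193 genes. "Rose" and "fell" are used of values past it. The fit was tested on simulated data that had known changes. The genes and lists were chosen with earlier results of these data known. All 10 genes are named, whatever their values. Of the lists of further family members and other hydrolases, genes called at 150 mg/kg-day are named, up to 4 a comparison, and for likeness the 5 genes with the highest correlation of group means. Promoter windows came from RefSeq (GRCm38.p6). Alternatives were the replicate number as a block, an intensity trend, array weights, the mean of a gene's probe sets, a second quantile normalization, centring on medians, leaving out dim genes, fits of the compared arrays alone, and each array left out. A pair of settings was added after seeing the data, leaving out the 2 male libraries against their labels or the 2 female arrays low in Ces2a. Figures used matplotlib 3.10.9.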

Additional observations from a re-analysis of the deposited data

Results flagged for a closer look

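In groups of 4, an array was singled out where its gap to the nearest other array exceeded Dixon's 95% critical share of the group's range. This held for 14 of 192 combinations of gene and group, where chance gives about 1 in 20. For Ces2a there were 6. In females, replicate 4 at 15 mg/kg-day on day 2 read 9.94 and replicate 3 at 150 on day 7 read 13.18. In males, replicate 2 at 1.5 on day 2 read 12.79, and on day 7 replicate 3 at 0.15 read 11.86, replicate 2 at 15 read 12.06 and replicate 2 at 150 read 13.44. All but the 12.79 were low in their group. The 8.56 of female replicate 4 at 1.5 on day 2 was not singled out by this rule.

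For Ces1e, 3 male arrays on day 2 were low: replicate 1 at 1.5 mg/kg-day at 10.57, replicate 3 at 75 at 10.13 and replicate 3 at 150 at 10.39. The replicate 3 at 75 was also low in Ces1f, at 12.26. For Ces2e, female replicate 1 on day 7 was low at dose 0, at 8.54, and at 0.15 mg/kg-day, at 8.89. Ces1g in female replicate 4 at 150 on day 2 was low at 9.95, and Ephx1 in female replicate 4 at 1.5 on day 7 was low at 11.19. No cause was tested.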

How the results depend on the processing

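Of 26 called differences of single genes, 10 kept their call in every alternative, and no difference that was called changed direction. The 10 were Ephx1 at 150 mg/kg-day in all 4 comparisons, Ces2a at 150 in females on both days, Ces1d at 150 in females on day 2, and the untreated sex difference of Ephx1 on day 2 and of Ephx2 on both days. At 75 mg/kg-day in females on day 2, members called went from 1 to 2 in a fit of only the compared arrays and to 2 without the 2 female arrays low in Ces2a, which also gave 2 in place of 1 on day 7. Calls between 75 and 15 mg/kg-day went from 1 to 2 after a second quantile normalization and to 0 with the mean of all probe sets, centring on medians, fits of only the compared arrays, or without the 2 female arrays. Sex differences at dose 0 fell to 2 called on each day in fits of only the compared arrays, from 4 and 5. With 1 array left out, members called at 150 ranged from 3 to 4 and 2 to 5 in females and males on day 2, and from 2 to 4 and 1 to 2 on day 7. At 75 they ranged from 0 to 1 in females on each day, between 75 and 15 and between 150 and 75 from 0 to 1, and between the untreated sexes from 2 to 4 on day 2 and 2 to 5 on day 7. All other counts stayed at 0.

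With the replicate number as a block, the counts of members called at 150 were 3, 5, 3 and 3, and no other count changed. The numbers, checked between 150 mg/kg-day and dose 0, showed no strong pairing of the arrays there. The correlation of same-numbered deviations lay between -0.161 and 0.139 and was over 0.1 in 2 of 16 same-numbered pairs of arrays. Of the 16, 6 fitted best with their own number. In males on day 2 it was above 0 in every pair, 0.0421 to 0.139, and in females on day 2 it lay between -0.161 and 0.0967. This check cannot tell a weak pairing from none. The number of arrays, 4 a group, limits every interval.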
